A study of Sus scrofa with 39 samples.

Results

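The red cell membrane skeleton was followed through 9 genes in the whole blood of preterm piglets: SPTB, ANK1, EPB42, EPB41, DMTN, TMOD1, RHAG, GYPC and ICAM4. The genes were taken by symbol from the 25880 genes counted in each library, a rule that in itself uses no measured value. A row was found for 8 of the 9, and all 8 passed the filter on low counts, while TMOD1 is not analysed here. The study asked whether blood RNA carries early markers of necrotizing enterocolitis (NEC), an inflammatory bowel disease of preterm infants that also develops in formula-fed preterm piglets. Blood RNA of 39 piglets was sequenced, 19 without NEC (CON), 11 with mild NEC (NEC_Mild) and 9 with severe NEC (NEC_Severe), all fed formula and graded at necropsy on day 5. Each library came from 1 piglet of the labelled batch, sex and severity, and the labels carry no genotype, strain, drug or day of blood sampling. Batch 1 held 7 CON, 4 NEC_Mild and 3 NEC_Severe piglets, batch 2 held 5, 0 and 4, and batch 3 held 7, 7 and 2.

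Beneath the lipid bilayer of a red cell lies a meshwork of spectrin that gives the cell its shape and its elasticity in narrow vessels. Vertical links hold the meshwork to the anion exchanger SLC4A1 through ankyrin and the protein encoded by EPB42. At the junctions of the mesh, spectrin meets short actin filaments together with the products of EPB41 and DMTN, and the EPB41 protein ties each junction to glycophorin C in the membrane. Mature mammalian red cells have no nucleus, so their RNA comes from reticulocytes, from remaining precursors and from what older red cells still hold. Leukocytes, which whole blood contains, also express some of these genes, EPB41 and GYPC among them. In humans, inherited defects of SPTB, ANK1 and EPB42 are known causes of spherocytosis, and defects of EPB41 of elliptocytosis. In a bulk blood sample, fewer red cells and less RNA per red cell cannot be told apart.

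Positions are given on the pig assembly Sscrofa11.1, as RefSeq annotates the genes. SPTB, the beta chain of red cell spectrin, lies on chromosome 7 from 88812717 to 88954471. ANK1, the ankyrin that clamps spectrin to the anion exchanger, spans chromosome 17 from 10752258 to 10985129, and the microRNA gene MIR486-1 and a long non-coding RNA gene lie within the same span. EPB42 occupies chromosome 1 from 128231863 to 128253696 and overlaps CCNDBP1. EPB41 runs on chromosome 6 from 85842538 to 86029522 and overlaps TMEM200B and a pseudogene. DMTN, the actin-bundling dematin, is on chromosome 14 from 6315643 to 6346722. Of the 3 genes for proteins that cross the membrane, RHAG, the glycoprotein partner of the Rh blood group proteins, lies on chromosome 7 from 43704152 to 43730944. GYPC, glycophorin C, is on chromosome 15 from 25576343 to 25606913, and ICAM4, an adhesion protein that carries a blood group antigen in humans, is on chromosome 2 from 69108610 to 69110053. TMOD1, which caps the slow-growing ends of the actin filaments, lies on chromosome 1 from 239375150 to 239468387. The sources used here do not say whether reads were counted by strand, so reads shared between ANK1, EPB42 or EPB41 and a gene overlapping them cannot be assigned with certainty.

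The libraries held 12822178 to 28957056 counts on genes (median 18952814), and each of the 8 genes had at least 67 counts in every library. Globin genes took 35.0% to 90.6% of those counts, so levels are given as CPM, counts per library total set to a common scale with the trimmed mean of M values (TMM), which sets aside genes of extreme abundance. Markers of leukocytes, platelets and red cell precursors were read in all 39 libraries. HTSeq's share of ambiguous reads was 9.92% to 15.2% in batch 1 and 2.10% to 6.36% in the other two batches, with no overlap. A library labelled male, NEC_Severe replicate 2, had 0 counts on KDM5D and 1 on EIF1AY, genes of the Y chromosome. Some of the results that it alters are given without it, and the within-batch values were not refitted without it. NEC_Severe replicate 9, also labelled male, had low counts on them, 6 and 8. The remaining males had 9 to 129 and 34 to 284. Libraries at the low end of the membrane genes were CON replicate 11, NEC_Mild replicate 4 and CON replicate 16, with mean log2 CPM of 4.49, 4.56 and 4.67. The highest was CON replicate 7 at 7.44, which also had the highest globin share.

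Spectrin and its vertical links overlapped fully between CON and the NEC grades. SPTB ranged from 7.97 to 58.4 CPM in CON (median 25.3), from 3.88 to 54.2 in NEC_Mild (median 35.8) and from 8.33 to 43.3 in NEC_Severe (median 17.8). ANK1 was measured at 7.16 to 27.3 CPM in CON (median 12.6), 8.23 to 33.7 in NEC_Mild (median 16.3) and 5.01 to 19.9 in NEC_Severe (median 13.3). For EPB42 the corresponding ranges were 21.3 to 215.2 CPM (median 77.4), 21.4 to 179.3 (median 114) and 29.5 to 187.2 (median 76.0). For all 3 genes NEC_Mild had the highest median, yet the spread within each group was several-fold and every group's range took in the medians of the others. NEC_Mild again had the highest median in both junction genes. EPB41 spanned 159 to 1616 CPM in CON (median 595), 178 to 1202 in NEC_Mild (median 748) and 243 to 1089 in NEC_Severe (median 646). DMTN spanned 47.5 to 708 CPM in CON (median 296), 77.1 to 605 in NEC_Mild (median 430.0) and 120.3 to 417 in NEC_Severe (median 279.9). Among the genes for membrane proteins, RHAG was at 3.56 to 36.4 CPM in CON (median 17.0), 5.94 to 41.2 in NEC_Mild (median 18.3) and 5.74 to 31.5 in NEC_Severe (median 14.1). GYPC was at 38.8 to 852 CPM in CON (median 246), 85.2 to 655 in NEC_Mild (median 346) and 64.5 to 562 in NEC_Severe (median 174). ICAM4 was at 12.6 to 163 CPM in CON (median 50.4), 19.9 to 147 in NEC_Mild (median 51.6) and 16.2 to 142.5 in NEC_Severe (median 38.9). The groups overlapped for all 8 genes, and levels of different genes are not compared here because no transcript lengths were used.

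**Figure D1:**
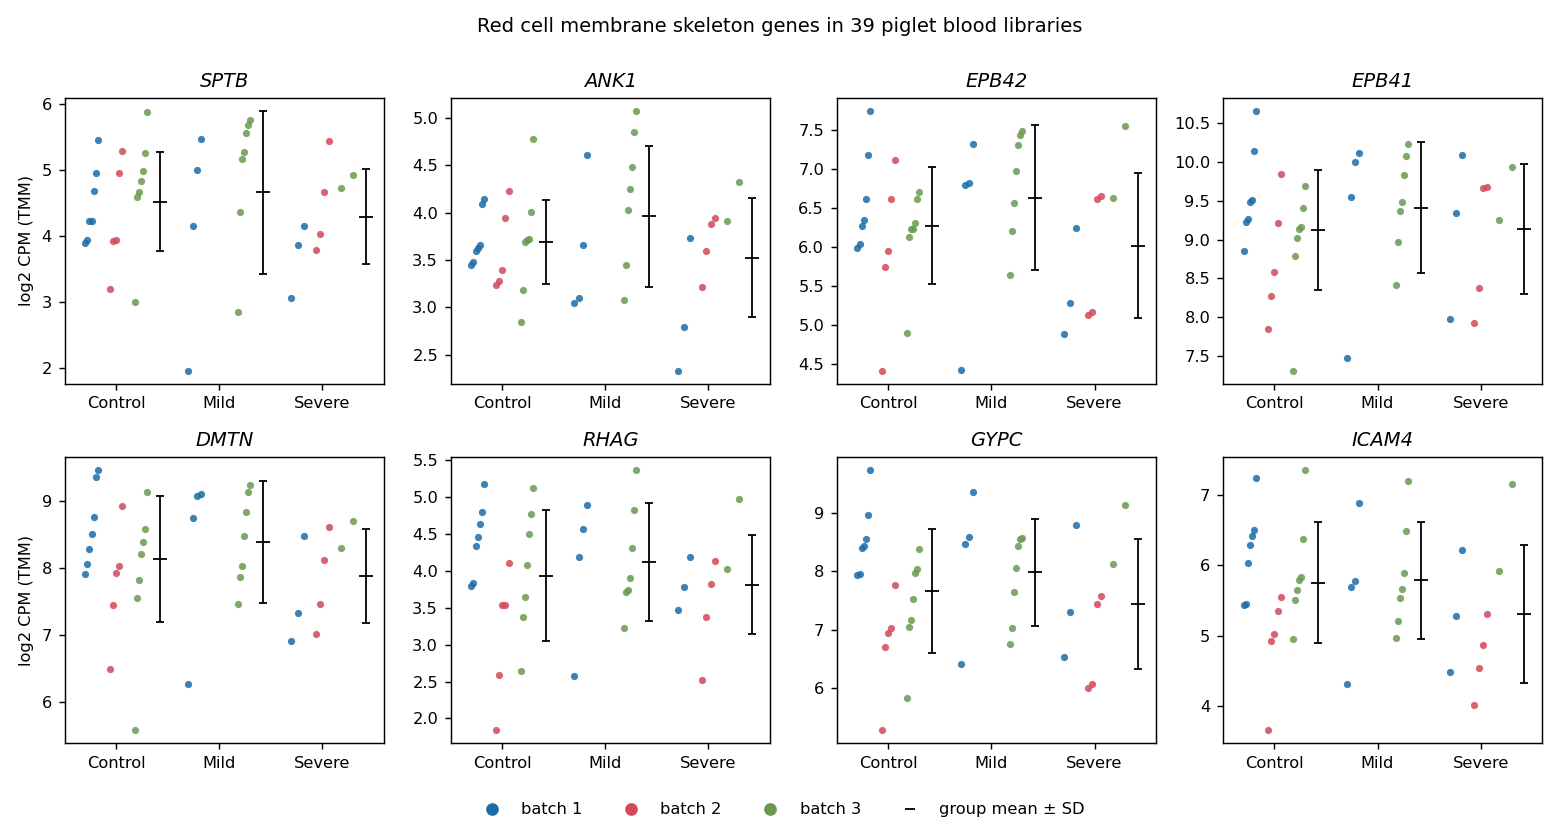
Log2 TMM-scaled CPM of the 8 membrane skeleton genes in each of the 39 piglet blood libraries, by severity group; each point is 1 library coloured by batch, and bars are group means ± SD. CON, NEC_Mild and NEC_Severe overlap in every panel, and the batch 2 libraries of GYPC, ICAM4 and RHAG sit towards the low end.

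Severe NEC against CON was tested with edgeR's quasi-likelihood test, with batch and sex in the model and Benjamini-Hochberg adjustment over the 10731 genes that passed the filter; a gene is called here when its adjusted p is under 0.05. None of the 8 genes was called, with 0 at an unadjusted p under 0.05, and DESeq2 and limma called 0 as well. The lowest adjusted p was 0.785, against 2.09% of all tested genes called. SPTB had a log2 fold change (severe minus CON) of -0.19 ± 0.32 (SE), ANK1 of -0.12 ± 0.23 and EPB42 of -0.09 ± 0.29. EPB41 stood at 0.15 ± 0.29 and DMTN at -0.21 ± 0.32, while RHAG, GYPC and ICAM4 stood at 0.03 ± 0.27, 0.16 ± 0.30 and -0.09 ± 0.25. The 95% intervals of these differences reached from -0.86 (DMTN) to 0.78 (GYPC), so differences of up to that size in log2 lie within them. The median over the 8 genes was -0.09, beside -0.05 over all genes tested. Scaled by library size alone, the median of all genes moved to 0.33 and SPTB, ANK1, EPB42, DMTN and ICAM4 turned from negative to positive with 0 called; under both scalings 3 of the 8 lay above the median of all genes. Without NEC_Severe replicate 2 the count over all genes fell from 224 to 12, and EPB42 and ICAM4 turned positive, at 0.05 and 0.04. The count rose to 721 without NEC_Severe replicate 9 and was between 55 and 139 without any 1 of 8 other libraries. The membrane skeleton count stayed at 0 throughout.

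The other genes of the red cell membrane gave 1 call of 20 tested in the same comparison. ATP2B4, a calcium pump of the plasma membrane, rose by 0.57 ± 0.15 on the log2 scale (adjusted p = 0.0354, edgeR), and was at 1.11 (adjusted p = 0.191) when scaled by library size alone. CD47, which marks red cells as self to macrophages, was at 0.26 ± 0.13, and ADD1, the alpha chain of adducin at the mesh junctions, was at -0.23 ± 0.13. SLC4A1 was at -0.08 ± 0.28. The median of the 20 was -0.10, and 6 lay above and 14 below zero; by library size alone 2 lay below, with ADD1 at 0.13 and SLC4A1 at 0.19. Of 10 tested paralogs that serve other tissues 0 were called, with 5 at an unadjusted p under 0.05, among them ICAM1 at 0.67 ± 0.26 and SPTAN1 at -0.35 ± 0.16. Of 17 red cell precursor genes 0 were called and 0 had an unadjusted p under 0.05, with AHSP, the chaperone of alpha globin, at -0.56 ± 0.48. Some leukocyte markers also differed between severe NEC and CON: 3 of 4 monocyte markers were called higher, and 3 of 5 B cell markers and 1 of 5 T cell markers lower. None of 5 pan-leukocyte, 6 platelet, 4 neutrophil and 13 mitochondrially encoded genes was called, with 2, 2, 0 and 0 at an unadjusted p under 0.05. The mean log2 CPM of the monocyte list was 3.67 to 6.07 in CON and 5.28 to 6.54 in NEC_Severe, and that of the B cell list was 2.20 to 3.70 and 1.37 to 3.12. Their part in the values of the membrane genes was not tested.

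Mild NEC against CON gave higher fitted values for 6 of the 8 genes and no call. EPB42 was at 0.33 ± 0.29, ANK1 at 0.29 ± 0.22, EPB41 at 0.29 ± 0.29, SPTB at 0.21 ± 0.30, DMTN at 0.18 ± 0.31 and GYPC at 0.16 ± 0.30 on the log2 scale, with RHAG at -0.02 ± 0.26 and ICAM4 at -0.21 ± 0.25. The lowest adjusted p was 0.716, against 0% of all genes called by edgeR, where 841 genes had an unadjusted p under 0.05, DESeq2 called 20 and limma 0. RHAG turned positive, at 0.03, when libraries were scaled by size alone. In severe against mild NEC the 5 genes of the mesh, its links and its junctions were all negative, from -0.42 ± 0.35 for EPB42 to -0.15 ± 0.35 for EPB41, and the lowest adjusted p was 0.520, against 0.112% of genes called. RHAG, GYPC and ICAM4 lay between -0.0016 and 0.11 in that comparison. Scaled by library size alone, where the median of all genes moved from -0.04 to 0.41, SPTB, EPB41 and GYPC turned positive, while relative to that median they lay at -0.27, -0.08 and -0.18. With both grades pooled as 1 NEC group, the 8 genes lay between -0.15 (ICAM4) and 0.22 (EPB41), the lowest adjusted p was 0.712, and 0% of genes were called by edgeR, 1549 having an unadjusted p under 0.05. DESeq2 called 63 genes and limma 127 there, with 0 of the 8 among them. These comparisons share the CON or the NEC_Mild libraries, so their values are not independent of each other.

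**Figure D2:**
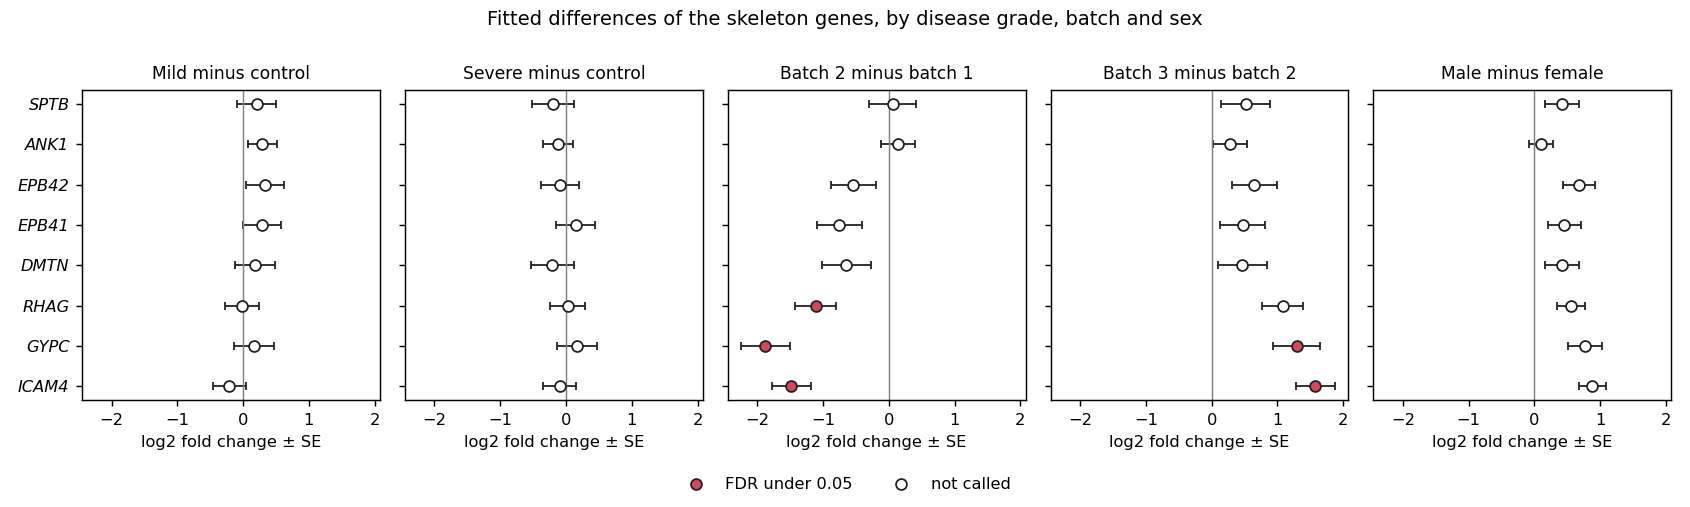
Log2 fold changes ± SE of the 8 genes in mild and severe NEC minus CON, batch 2 minus batch 1, batch 3 minus batch 2 and male minus female, from the edgeR fits; filled points were called. No point is filled in the disease and sex panels, GYPC, ICAM4 and RHAG are filled below 0 in batch 2 minus batch 1, and GYPC and ICAM4 above 0 in batch 3 minus batch 2.

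Within batches the severe against CON values ran in different directions. In batch 1, with 3 NEC_Severe and 7 CON piglets, all 8 genes were negative, from -1.0 ± 0.48 for EPB42 to -0.26 for EPB41. EPB42 was 29.5, 39.1 and 76.0 CPM in the 3 severe piglets of batch 1 and 63.3 to 215.2 CPM in its CON piglets, so the groups overlapped at 1 severe value. In batch 3 the 2 NEC_Severe piglets had 99.2 and 187.2 CPM beside 29.9 to 104 CPM in 7 CON piglets, and EPB42 was at 0.88 ± 0.50. GYPC was 93, 159 and 446 CPM in the severe piglets of batch 1, against 246 to 852 in CON, and 280.1 and 562 CPM in those of batch 3, against 56.7 to 335 in CON. Its log2 fold changes were -0.62 in batch 1, 0.08 in batch 2 and 1.11 ± 0.53 in batch 3. Batch 2 values of the 8 genes lay between -0.12 and 0.35. Red cell precursor genes took the same signs: all 17 were negative in batch 1 (median -0.86, 8 with an unadjusted p under 0.05) and all 17 positive in batch 3 (median 0.64, 2 under 0.05), with 9 positive and 8 negative in batch 2 and 0 called in each. Mitochondrially encoded genes were negative for 13 of 13 in batch 1 (median -1.12, 7 with an unadjusted p under 0.05) and positive for 12 of 13 in batch 3 (median 0.88, 6 under 0.05), with 0 called. Over all genes 12.9% had an unadjusted p under 0.05 in batch 1 and 20.3% in batch 3. The part of the precursor and mitochondrial lists in the values was not tested. No gene of the 8 was called in any batch: EPB42 in batch 1 had an adjusted p of 0.375 and GYPC in batch 3 of 0.235, both with an unadjusted p under 0.05. The shares of all genes called were 0.149% in batch 1, 0.00932% in batch 2 and 2.52% in batch 3.

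A test of whether the severe effect differed between the 3 batches called 0 of the 8 genes, against 0.103% of all genes. EPB42 had the lowest p of the 8, at 0.0350 (adjusted p = 0.279, edgeR), and GYPC had an adjusted p of 0.365. The mild effect was likewise negative for all 8 genes in batch 1 (median -0.18, 0% of genes called, 612 with an unadjusted p under 0.05) and positive for all 8 in batch 3 (median 0.47, 0.0373% called). EPB42 was at 0.81 ± 0.36 in batch 3 with an adjusted p of 0.564. Of the 17 precursor genes 13 were negative in batch 1 and 16 positive in batch 3. All 13 mitochondrially encoded genes were positive in batch 3 (median 0.87), each with an unadjusted p under 0.05, against 7.97% of all genes. Of the precursor and the mitochondrially encoded genes 0 were called. Both grades were compared in batch 3 with 7 CON libraries, of which 4 have names that begin with BKDL. Against the batch 3 libraries that begin with FKDL, these had 12 of 13 mitochondrially encoded genes negative (median -0.88, 2 called lower by edgeR). Of the 17 precursor genes 15 were negative there (median -0.43, 0 called). The part of the BKDL libraries in the batch 3 values of these lists was not tested. Between batches 1 and 3 the mild effect on EPB42 differed by 1.00 ± 0.56 (adjusted p = 0.759, edgeR). There 0 of the 8 genes and 0% of all genes were called by edgeR, while 679 genes had an unadjusted p under 0.05. The 8 genes varied together across libraries (median r of 0.80 between pairs), so 8 equal signs are not 8 separate observations.

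In batch 2, 3 of the 8 genes were called lower than in batch 1 with TMM scaling, beside 4.58% of all genes. These 3, GYPC, ICAM4 and RHAG, code for proteins that cross the membrane. Of the 20 other red cell membrane genes tested, 0 were called (median 0.14). In batch 2, GYPC had 38.8, 104, 123, 131 and 217 CPM in the 5 CON piglets and 64.5, 67.5, 174 and 191 CPM in the 4 NEC_Severe piglets. In batch 1 its CON piglets had 246 to 852 CPM (median 345, n = 7), so the CON piglets of the 2 batches did not overlap. Over all libraries the batches did overlap, with GYPC at 85.2 to 852 CPM in batch 1 and 38.8 to 217 in batch 2. The share of all genes that separate these CON piglets was not counted. ICAM4 had 12.6, 30.4, 32.4, 40.8 and 46.7 CPM in the CON piglets of batch 2 and 16.2, 23.4, 29.1 and 39.7 CPM in its severe piglets, against 43.5 to 152 CPM in the CON piglets of batch 1. RHAG had 3.56, 5.99, 11.6, 11.6 and 17.2 CPM in the CON piglets of batch 2, with a median of 11.6 over all 9 libraries of that batch and 19.2 over the 14 of batch 1. RHAG in the severe piglets of batch 2 ran from 5.74 to 17.5 CPM. Over all libraries ICAM4 ran from 12.6 to 46.7 CPM in batch 2 (median 30.4) and from 19.9 to 152 in batch 1. RHAG ran from 3.56 to 17.5 CPM in batch 2 and from 5.94 to 36.4 in batch 1. For both genes the values overlapped, with the lowest of batch 1 below the median of batch 2.

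With severity and sex in the model, GYPC fell by 1.87 ± 0.37 on the log2 scale from batch 1 to batch 2 (adjusted p = 0.000786, edgeR), ICAM4 fell by 1.48 ± 0.29 (adjusted p = 0.000905) and RHAG fell by 1.11 ± 0.31 (adjusted p = 0.0178). These 3 calls of 8 stood beside 10.3% of all genes called in either direction and 4.58% called lower. The mesh genes were not called: SPTB was at 0.06 ± 0.36 and ANK1 at 0.14 ± 0.25, with EPB42 at -0.54 ± 0.34, EPB41 at -0.75 ± 0.34 and DMTN at -0.64 ± 0.37. The scaling decides how these values read. By library size alone the median of all genes moved from 0.08 to 1.29, GYPC stood at -0.39, ICAM4 at -0.01 and RHAG at 0.24, none of them called, and SPTB, ANK1, EPB42 and DMTN were called higher at 1.36, 1.49, 0.91 and 0.75. That scaling called 8217 of the 10731 genes in either direction. Relative to the median of all genes, GYPC was at -1.95 with TMM and -1.68 with library size, ICAM4 at -1.56 and -1.30, RHAG at -1.19 and -1.04, SPTB at -0.02 and 0.07 and ANK1 at 0.06 and 0.20. In CON piglets alone GYPC was at -2.15 (adjusted p = 0.00669) and ICAM4 at -1.66 (adjusted p = 0.0143), while RHAG was at -1.38 (adjusted p = 0.0807). Leaving out each library in turn kept GYPC and ICAM4 called in 39 of 39 fits and RHAG in 38, the exception being CON replicate 11, without which RHAG was at -0.95 (adjusted p = 0.0545).

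Red cell precursor genes and globin moved with the same batch. Of 17 precursor genes 16 had negative values in batch 2 against batch 1 and 3 were called: AHSP fell by 2.37 ± 0.56 on the log2 scale, the beta globin gene HBB fell by 1.68 ± 0.47 and ALAS2, the first enzyme of haem synthesis in red cells, fell by 1.35 ± 0.40. Scaled by library size alone, AHSP was at -0.78 and still called, HBB at -0.20 and not called, and ALAS2 turned to 0.07, while 16 of the 17 lay below the median of all genes. Of the 20 other membrane genes 0 were called, with 4 at an unadjusted p under 0.05 and a median of 0.14; RHCE, the Rh protein that pairs with RHAG, was at -1.07 ± 0.37 (adjusted p = 0.0562) and SLC4A1 at -0.51 ± 0.32. Library size alone turned RHCE to 0.24 and SLC4A1 to 0.88, with 18 of the 20 called higher, beside 8217 of 10731 genes called in either direction. The globin share was 70.7% to 90.6% in batch 1 (median 86.7%) and 54.9% to 83.7% in batch 2 (median 74.2%), and the mean log2 CPM of the precursor list was 4.77 to 7.29 and 4.35 to 6.54. Batch 2 also differed in sex, with 7 of 9 piglets male against 6 of 14 in batch 1, and held no NEC_Mild piglet. The part of precursor RNA, globin share and ambiguous reads in the batch difference was not tested.

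Batch 3 against batch 2 gave positive values for all 8 genes, with 2 called by edgeR. ICAM4 was 30.9 to 163 CPM in batch 3 (median 56.1) and rose by 1.58 ± 0.29 over batch 2 (adjusted p = 0.00649), and GYPC was 56.7 to 562 CPM (median 256) and rose by 1.29 ± 0.36 (adjusted p = 0.0467). RHAG was at 1.08 ± 0.31 with an adjusted p of 0.0547, and the others lay between 0.28 (ANK1) and 0.65 (EPB42). Over all genes 2.07% were called in either direction and 1.34% higher. By library size alone the median of all genes moved from -0.04 to -0.90, SPTB, ANK1, EPB42, EPB41 and DMTN turned negative and 0 of the 8 were called, while all 8 lay above that median under both scalings. ICAM4 was called in 39 of 39 fits that left out 1 library, GYPC in 18 and RHAG in 8; without NEC_Severe replicate 9 GYPC had an adjusted p of 0.166 and without CON replicate 11 of 0.120. RHAG was called by DESeq2 (adjusted p = 0.0171), by limma (0.00529) and in edgeR without the 4 BKDL controls (0.0257). Over all genes these fits called more, 521, 1522 and 870 in that order, against 222 in the reported fit. RHAG was also called without NEC_Severe replicate 2 (1.14, adjusted p = 0.0322), where the count over all genes went from 222 to 332, and without CON replicate 16 (adjusted p = 0.0330). In CON piglets alone 0 of the 8 were called, with GYPC at 0.95 and ICAM4 at 1.37 (adjusted p = 0.271). In batch 3 against batch 1, 0 of the 8 were called against 19% of all genes, with SPTB at 0.58 ± 0.28, ANK1 at 0.42 ± 0.21 and GYPC at -0.58 ± 0.28, each with an unadjusted p under 0.05. Limma called SPTB there at 0.79, and library size alone called it at 1.02. KEL and AQP1, a blood group protein and a water channel of the red cell membrane, were higher in batch 3 than in batch 1, by 0.98 ± 0.31 and 0.69 ± 0.25 (adjusted p = 0.0225 and 0.0499), and by 1.35 and 1.08 with library size alone. A test for any difference between the 3 batches called RHAG (adjusted p = 0.0182), GYPC (0.00100) and ICAM4 (0.000422), beside 21.7% of all genes. Within batch 3, libraries whose names begin with BKDL, 4 of the CON, and those beginning with FKDL did not separate: 0 of the 8 were called with 0 at an unadjusted p under 0.05, against 0.671% of all genes, and GYPC was at -0.72 ± 0.51.

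The batch values were also read as a ratio of counts within each library, which no scaling can alter. GYPC had 10.9 to 25.1 counts per SPTB count in batch 1 (median 15.5) and 3.17 to 8.57 in batch 2 (median 4.69), with no overlap, and 3.74 to 21.1 in batch 3 (median 7.23). The share of all gene pairs whose ratio separates batches 1 and 2 was not counted. The geometric mean of GYPC per SPTB count was 16.3 in the 14 libraries of batch 1 and 5.30 in the 9 of batch 2, a log2 difference of -1.63. For ICAM4 per SPTB count the geometric means were 3.12 and 1.37 (log2 difference -1.19), and for RHAG they were 0.984 and 0.472 (log2 difference -1.06). Among CON piglets, 7 against 5, the log2 differences were -1.60, -1.07 and -1.09. The pairs of genes were chosen after their batch values were seen, so the ratios are a description of these libraries and carry no test.

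**Figure D3:**
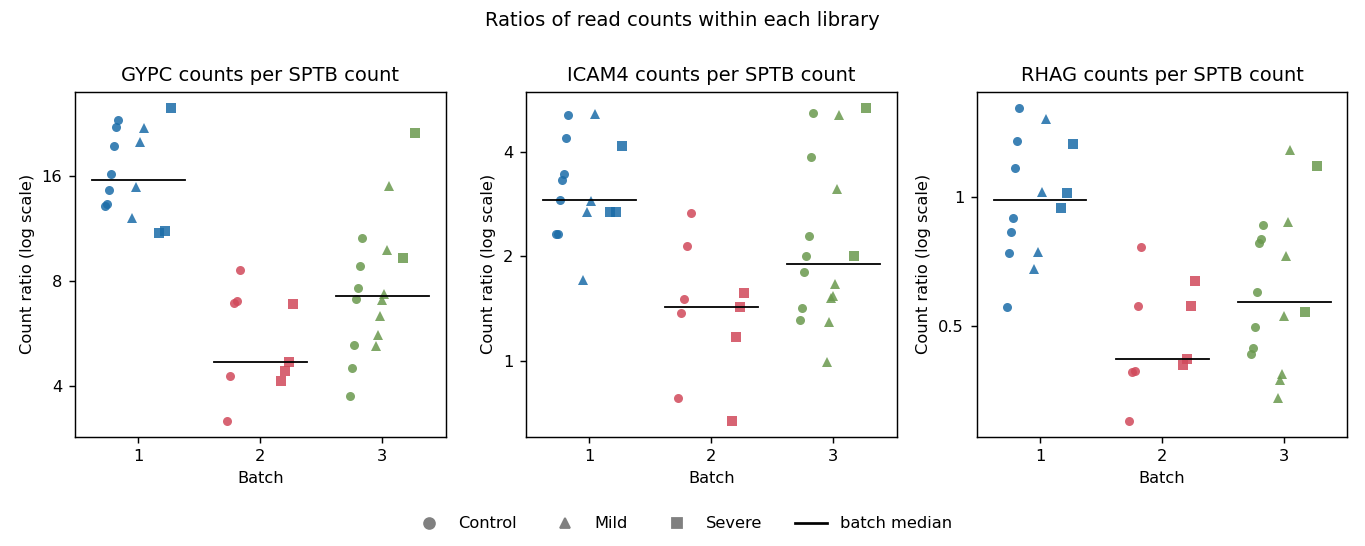
Counts of GYPC, ICAM4 and RHAG per SPTB count in each library on a log axis, by batch; points are libraries, shaped by severity, and lines are batch medians. GYPC per SPTB in batch 2 (3.17 to 8.57) lies below batch 1 (10.9 to 25.1), and the share of gene pairs that separate in this way was not counted.

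Sex gave positive values for all 8 genes, male minus female, and 0 calls by edgeR against 0.121% of all genes called. ICAM4 was at 0.88 ± 0.21 (adjusted p = 0.0793), GYPC at 0.77 ± 0.26 (adjusted p = 0.344), EPB42 at 0.68 ± 0.24 and RHAG at 0.56 ± 0.22, the 4 genes with an unadjusted p under 0.05. EPB41 was at 0.46 ± 0.24, DMTN at 0.42 ± 0.26, SPTB at 0.41 ± 0.26 and ANK1 at 0.10 ± 0.18. DESeq2 called ICAM4 (adjusted p = 0.00902) and GYPC (adjusted p = 0.0358) among 122 genes called in all, and limma called 0 of the 8. Without NEC_Severe replicate 2, the library whose Y-linked counts go against its label, ICAM4 was at 0.95 with an adjusted p of 0.0181; it was called in 4 of 39 fits that left out 1 library. By library size alone, where the median of all genes moved from -0.03 to -0.82, SPTB, ANK1, EPB41, DMTN and RHAG turned negative, while all 8 lay above that median under both scalings. All 17 red cell precursor genes were positive too (median 0.60), with 0 called and 8 at an unadjusted p under 0.05, and 10 of them were negative by library size alone. The mean globin share was 81.1% in the 20 males and 76.4% in the 19 females. Their part in the values was not tested.

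Across the 39 libraries the 8 genes varied together on the log2 CPM scale. Pearson's r over the 28 pairs ran from 0.49 (ANK1 and GYPC) to 0.93 (EPB41 and DMTN), with a median of 0.80, and Spearman's rho from 0.51 to 0.90. Over 52 relations computed in this family, adjusted permutation p reached 0.00217 at most for these pairs of genes by r and 0.00180 by rho. With the 2 libraries farthest from the median left out, r ran from 0.46 to 0.90, and the median r was 0.88, 0.87 and 0.75 within batches 1, 2 and 3. GYPC and ICAM4 were tied at 0.89 and EPB42 and EPB41 at 0.91, while SPTB and GYPC had 0.63. The libraries share their globin content in these values, and each gene also correlated with the globin share of counts, from 0.39 (ANK1) to 0.87 (DMTN) by r and from 0.39 to 0.89 by rho, with an adjusted permutation p of 0.0226 at most. Without the 2 farthest libraries those r ran from 0.37 to 0.88, and they were 0.72 to 0.90 within batch 1, 0.63 to 0.96 within batch 2 and 0.39 to 0.90 within batch 3. With the mean of the pan-leukocyte markers r was -0.32 to -0.09 and rho -0.37 to -0.12 (adjusted permutation p of 0.0654 or more by r and 0.0312 or more by rho), and r was -0.35 to -0.12 without the 2 farthest libraries. With the platelet markers r was -0.12 to 0.05 and rho -0.10 to 0.10 (adjusted permutation p of 0.570 or more by r), and r was 0.04 to 0.44 within batch 1, 0.18 to 0.49 within batch 2 and -0.66 to -0.0029 within batch 3.

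**Figure D4:**
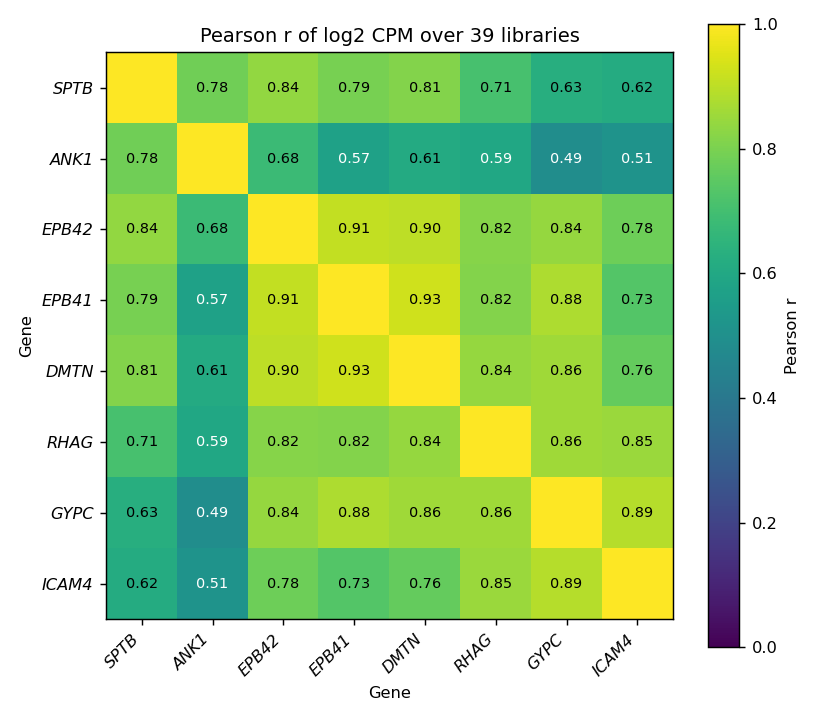
Pearson's r of log2 CPM between each pair of the 8 genes over 39 libraries, as a colour grid with the value in each cell. Values run from 0.49 (ANK1 and GYPC) to 0.93 (EPB41 and DMTN).

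**Figure D5:**
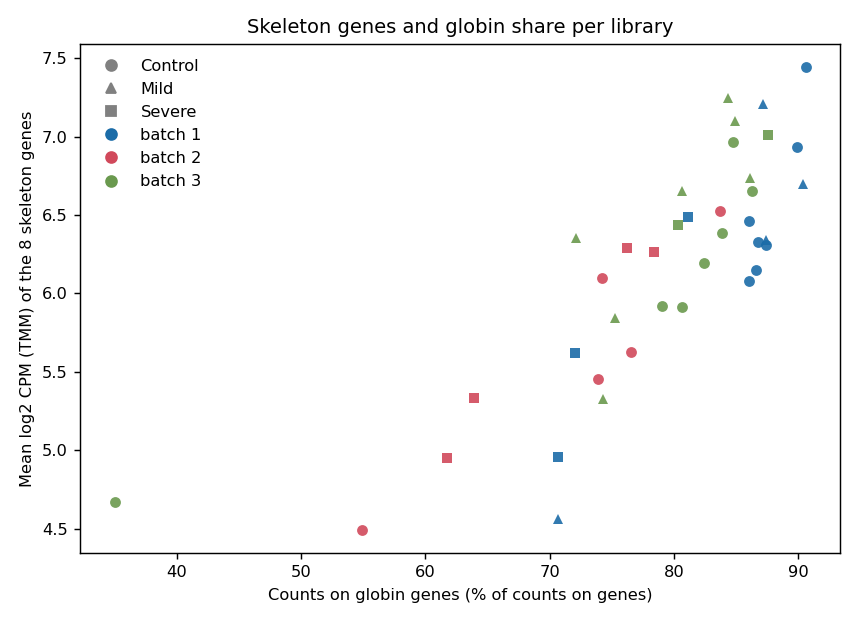
Mean log2 CPM of the 8 genes against the percent of counts on globin genes, with each point 1 library coloured by batch and shaped by severity. CON replicate 16, at 35.0% globin, and CON replicate 11, at 54.9%, lie among the lowest means, and CON replicate 7, at 90.6%, has the highest.

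To find the genes whose pattern was most like that of the 8, each gene with a symbol was correlated with their mean after removal of batch means, over 39 libraries and 9295 genes. The closest were MXI1, a repressor of the MAX network (r = 0.962), ADIPOR1, an adiponectin receptor (0.956), TRIM58, a ubiquitin ligase of maturing red cells in mice (0.954), PLCL2, a phospholipase C-like protein (0.951), and RNF10, a RING finger protein (0.951). Of the 9295 genes, 165 had r above 0.8 and 47 above 0.9. The 8 genes themselves, which make up the mean, had r from 0.776 for ANK1 to 0.954 for EPB42 and GYPC, so ANK1 followed the others least closely. These values describe the 39 libraries and carry no test.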

How the data were processed

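Whole blood RNA of 39 piglets was extracted with a MagMax blood kit, libraries were made from 500 ng RNA with a VAHTS mRNA kit and sequenced as 150 bp pairs on an Illumina HiSeq instrument, per the labels' protocols. The authors deposited raw read counts per gene, 1 file per library; the submitters' processing notes name Trim Galore, TopHat, HTSeq, DESeq2 and the assembly Sscrofa11.1, with no versions. The 5 closing lines of each file (no feature, ambiguous and the like) were left out of library sizes and tests, and reads mapped to several places were 16.4% to 51.9% of the sum of all lines. Symbols were matched by Ensembl ID for 14857 of 25880 genes.

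Counts were tested with edgeR 4.0.16 in R 4.3.3: TMM, filterByExpr with a minimum count of 10, robust quasi-likelihood F test, terms for severity, batch and sex, adjustment over 10731 genes and a threshold of 0.05. Each SE was taken as the absolute log2 fold change over the root of its F statistic. CPM are TMM-scaled, with a prior count of 0.5 on the log2 scale. Within-batch values come from a fit with 1 mean per severity and batch. DESeq2 1.42.0, limma 3.58.1 (voom) and sva 3.50.0 with 8 surrogate variables served as alternatives. Permutation tests of correlations used numpy 2.4.6 with 100000 resamples, and their p-values were adjusted with scipy 1.17.1. The alternatives for the batch and sex comparisons were added after seeing the data. The pipeline was tested on simulated data. Replicate numbers were given in accession order and only name a library. In 262 pairs of libraries of 1 group, chi-square over its degrees of freedom was at least 9.61, so none of these pairs was a repeat. Pairs of libraries from different groups were not compared. Separate piglets are not stated beyond the sample labels, so p-values measure the spread between these samples.

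The genes and lists were chosen with earlier results of these data known. All 9 genes are named throughout; of each related list, up to 4 tested genes with the smallest p in severe against CON were eligible, SLC4A1 always, and called or near-called list genes in the batch comparisons were chosen after their values were seen. The list of other red cell membrane genes held 29 genes, of which 21 had a row, that of paralogs 22 and 20, and that of precursor genes 21 and 18. A further gene that the rule names is not reported here. The marker lists were pan-leukocyte, T cell, B cell, monocyte, neutrophil and platelet genes and mitochondrially encoded genes.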

Additional observations from a re-analysis of the deposited data

Results flagged for a closer look

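Each of the 8 genes was looked at in NEC_Severe as a whole (9 libraries) and in the 6 sets of 4 to 7 libraries that 1 severity group formed within 1 batch. Of these 56 sets, 3 held a library far from the others by Dixon's test, which chance alone gives in about 1 in 20 sets. CON replicate 16 was at 29.94 CPM for EPB42, while the next lowest CON library of batch 3 had 70.18. The same library was at 158.6 CPM for EPB41, with the next at 441.9. NEC_Mild replicate 4 was at 77.12 CPM for DMTN, while the next lowest NEC_Mild library of batch 1 had 430.0. Globin genes took 35.0% of the counts in CON replicate 16, the lowest share of the 39 libraries, and 70.7% in NEC_Mild replicate 4, the lowest share of batch 1. The part of the globin share in these values was not tested.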

How the results depend on the processing

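In severe, mild and pooled NEC against CON and in severe against mild NEC, 0 of the 8 genes were called in the reported fit and under every alternative run. With GYPC, ICAM4 and RHAG, batch 2 against batch 1 kept 3 calls under both other tests, DESeq2's size factors, the removal of globin genes, both other filters and the removal of the BKDL controls. Values in parentheses are log2 fold changes that turned sign; the cause was not tested. With DESeq2, the count of genes called was 559 in severe NEC against CON, 20 in mild NEC against CON, 114 in severe against mild NEC, 63 in both NEC groups against CON, 521 in batch 3 against 2 and 122 in males against females. Of the 8 genes it called 2, GYPC and ICAM4, in males against females. With limma voom and sample weights, the count of genes called was 1701 in severe NEC against CON, 818 in severe against mild NEC, 127 in both NEC groups against CON, 2415 in batch 2 against 1, 1522 in batch 3 against 2 and 28 in males against females. Limma called 1 of the 8, SPTB, in batch 3 against 1. Under limma the sign turned in severe NEC against CON (EPB41 -0.12, RHAG -0.14, GYPC -0.22), mild NEC against CON (SPTB -0.097, GYPC -0.0014), severe against mild NEC (RHAG -0.0041, ICAM4 -0.010), both NEC groups against CON (SPTB -0.080, DMTN -0.023, RHAG -0.045), batch 2 against 1 (SPTB -0.031) and batch 3 against 1 (RHAG 0.064). Scaling by library size alone gave a count of genes called of 0 in severe NEC against CON, 0 in severe against mild NEC, 8217 in batch 2 against 1, 2621 in batch 3 against 2, 555 in batch 3 against 1 and 6891 in males against females. Of the 8 genes it called 0 in batch 3 against 2 and 1, SPTB, in batch 3 against 1. Under library size scaling the sign turned in severe NEC against CON (SPTB 0.28, ANK1 0.19, EPB42 0.20, DMTN 0.22, ICAM4 0.20), mild NEC against CON (RHAG 0.033), severe against mild NEC (SPTB 0.14, EPB41 0.34, GYPC 0.24), both NEC groups against CON (ICAM4 0.0090), batch 2 against 1 (EPB42 0.91, EPB41 0.59, DMTN 0.75, RHAG 0.24), batch 3 against 2 (SPTB -0.35, ANK1 -0.72, EPB42 -0.33, EPB41 -0.42, DMTN -0.53), batch 3 against 1 (EPB41 0.17, DMTN 0.21, RHAG 0.35) and males against females (SPTB -0.072, ANK1 -0.57, EPB41 -0.083, DMTN -0.10, RHAG -0.093). Removal of the globin genes turned the sign in mild NEC against CON (RHAG 0.0019). Without the filter on low counts, the count of genes called was 127 in severe NEC against CON and 141 in batch 3 against 2. Of the 8 genes 1, ICAM4, was then called in batch 3 against 2. Unfiltered, the sign turned in severe against mild NEC (GYPC 0.037). With at least 1 CPM required in 20 libraries, the count of genes called was 1 in males against females. Without batch and sex terms, the count of genes called was 38 in severe NEC against CON. Terms dropped, the sign turned in severe NEC against CON (RHAG -0.21, GYPC -0.18), mild NEC against CON (RHAG 0.15, ICAM4 0.018), severe against mild NEC (RHAG -0.37, ICAM4 -0.37) and both NEC groups against CON (DMTN -0.00068, RHAG -0.00079). With the BKDL libraries as a batch of their own, the count of genes called was 94 in severe NEC against CON and 37 in severe against mild NEC. BKDL set apart, the sign turned in mild NEC against CON (GYPC -0.051), severe against mild NEC (GYPC 0.073) and both NEC groups against CON (EPB42 -0.012, DMTN -0.052, GYPC -0.012). The surrogate variables were added to the terms for batch and sex. With them the count of genes called was 0 in severe NEC against CON and 1 in severe against mild NEC. Under surrogate variables the sign turned in severe NEC against CON (SPTB 0.026, ANK1 0.10, DMTN 0.28, ICAM4 0.47), mild NEC against CON (SPTB -0.12, EPB41 -0.098), severe against mild NEC (SPTB 0.14, EPB41 0.30, DMTN 0.22, GYPC 0.29) and both NEC groups against CON (SPTB -0.072, RHAG -0.055, ICAM4 0.15). Without the 4 BKDL controls, the count of genes called was 70 in severe NEC against CON, 33 in severe against mild NEC and 870 in batch 3 against 2. BKDL left out, the sign turned in mild NEC against CON (RHAG 0.0019, GYPC -0.036), severe against mild NEC (GYPC 0.071) and both NEC groups against CON (EPB42 -0.0045, DMTN -0.037). Without batch 2, the count of genes called was 12 in severe NEC against CON, 2 in mild NEC against CON, 0 in severe against mild NEC and 5 in both NEC groups against CON. Batch 2 left out, the sign turned in severe NEC against CON (RHAG -0.19), severe against mild NEC (RHAG -0.14, GYPC 0.0028) and both NEC groups against CON (SPTB -0.024, RHAG -0.10). Within the CON libraries alone, the count of genes called was 340 in batch 2 against 1, 8 in batch 3 against 2 and 242 in batch 3 against 1. Among them 0 of the 8 genes were called in batch 3 against 2. CON alone, the sign turned in batch 2 against 1 (SPTB -0.28, ANK1 -0.094), batch 3 against 1 (EPB42 -0.56, ICAM4 -0.29) and males against females (ANK1 -0.031).

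Leaving out each library in turn gave ranges over 39 fits. Severe NEC against CON ranged from 12 to 721 genes called, from -0.26 to 0.054 for EPB42, from -0.067 to 0.14 for RHAG, from -0.010 to 0.32 for GYPC and from -0.23 to 0.035 for ICAM4. Mild NEC against CON ranged from -0.13 to 0.15 for RHAG. Severe against mild NEC ranged from 5 to 104 genes called, from -0.070 to 0.16 for RHAG, from -0.21 to 0.14 for GYPC and from -0.053 to 0.24 for ICAM4. Both NEC groups against CON ranged from 0 to 1 genes called, from -0.056 to 0.16 for SPTB, from -0.084 to 0.12 for DMTN and from -0.062 to 0.14 for RHAG. Batch 2 against 1 ranged from -0.098 to 0.22 for SPTB. Batch 3 against 2 ranged from 1 to 3 of the 8 genes called and from 43 to 716 genes called. Batch 3 against 1 ranged from -0.0036 to 0.22 for EPB42 and from -0.20 to 0.042 for RHAG. Males against females ranged from 0 to 1 of the 8 genes called and from 11 to 35 genes called. In severe NEC against CON the count of genes called moved by over 1.5 times without CON replicates 2 (130), 11 (133) and 18 (139) and NEC_Severe replicates 1 (55), 2 (12), 4 (79), 5 (91), 6 (105), 8 (103) and 9 (721).

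No paired analysis was made, because the labels used here (severity, batch, sex and library name) link no piglets in pairs or litters. The replicate numbers only name a library and pair nothing. Each of the 8 genes had at least 67 counts in each library, and the part of depth in the calls was not tested. Batch 3 held 2 NEC_Severe piglets and batch 2 no NEC_Mild piglet.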
